A study of Mus musculus with 6 samples.

Results

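The genes described here are 35 genes of sterol and fatty acid synthesis, picked by their known roles and by gene symbol, not by a threshold on measured values, out of 23091 gene symbols in the deposited tables. All 35 were found in all 6 libraries. They comprise 7 enzymes of the mevalonate pathway, 9 enzymes of the sterol branch, 6 genes of the SREBP control system and of sterol transfer, 11 genes of fatty acid synthesis and desaturation, and 2 sterol exporters. The RNA came from CD4 T cells isolated as naive cells from spleen and nodes of wild-type C57/Bl6j mice aged 7 weeks. All cells were plated on antibodies to CD3 and CD28 and given 20 ng/ml IL-4, 2 ng/ml TGFβ and an antibody that blocks IFNγ, a mixture that drives the helper T cell state called Th9. Each of the 6 groups is 1 library. At 1 h, at day 3 and in vivo there was a library of Th9 cells given 10 ng/ml IL-1β and a library of Th9 cells not given it. The in vivo libraries came from a transfer, in which CD45.2 cells from 3 days of culture were injected into CD45.1 mice and sorted back 1 week later. Neither the organ of that sort nor the number of mice is given in the sources used here. The 1 h RNA was depleted of rRNA, while the other 4 libraries were made from poly(A)-purified RNA.

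Cells build cholesterol from acetyl-CoA. The mevalonate pathway makes isoprenoid units, and the sterol branch joins them to squalene, closes the rings and trims the product to cholesterol. The transcription factors SREBP-2, encoded by Srebf2, and SREBP-1, encoded by Srebf1, switch on sterol and fatty acid enzyme genes. Scap carries them to the Golgi for cleavage when membrane sterol is low, and the Insig proteins hold Scap in the endoplasmic reticulum when sterol is plentiful. T cells are known to raise both pathways after activation, when they prepare to divide and need new membrane.

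Levels are the authors' FPKM, fragment counts scaled to transcript length and to library size, each with a deposited interval. Because of the length scaling, levels of different genes can be set side by side. A gene was compared in a pair of libraries if 1 of them held at least 5 FPKM of it. It was counted, and is called higher or lower below, if in addition (FPKM + 1) differed at least 2-fold and the deposited intervals stayed apart. With 1 library per group this rule has no replicate behind it and gives no p-value, and whatever differed between the libraries by preparation cannot be told apart from the condition. In poly(A) libraries 7313 to 8154 genes reached 5 FPKM, against 765 at 1 h with IL-1β and 631 at 1 h without it. The T cell marker Thy1 stood at 566 to 742 FPKM in the 4 poly(A) libraries, and Cd2 in vivo at 418 FPKM with IL-1β, against 579 FPKM without. The arm of each library was taken from its label, and no value here checks it. By median absolute difference of log2(FPKM + 1) over 8901 genes, the in vivo library with IL-1β was nearer to the day 3 library without IL-1β (0.36, Pearson r 0.796) than to the one with it (0.51, r 0.788). The in vivo library without IL-1β was nearer to the day 3 library without it (0.23, r 0.916) than to the one with it (0.41, r 0.886). The in vivo libraries also held RNA of other cells. The summed level of 9 markers of alveolar and airway epithelium was 17540 FPKM in vivo with IL-1β and 6718 FPKM in vivo without it, while at day 3 it was 17.7 FPKM with and 20.8 FPKM without IL-1β.

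Start regions of some genes of the in vivo comparison are shown first. Many genes of the set, lower in vivo or not, hold the same short motif. RefSeq promoter windows (build GRCm38.p6) matched 27 of the 35 genes. They were searched on both strands, over the 250 bases before each annotated start, for the CCAAT box bound by NF-Y (letters CCAAT) and for a core of the sterol regulatory element bound by SREBP (letters TCACNCCAC). The CCAAT letters stood in at least 1 window of 20 of the 27 genes (74.1%), against 41.0% of the 6304 genes with a window that were compared in vivo and 37.5% of all 27025 genes with a window. They stood in 9 of the 10 genes with a window that were lower in vivo with IL-1β. Fdps, Fdft1, Sqle, Stard4 and Scd2 were also lower there but had no window. The sterol element core stood in 1 of the 27 genes, Hmgcs1, against 1.14% of the compared genes and 1.22% of all genes. By single windows, 33.8% and 1.05% of all 32851 held the CCAAT letters and the sterol element core. A match is a description of these letters only, and the core searched is stricter than the range of sequences that SREBP is known to bind. The 5 genes listed first were lower in vivo with IL-1β, and Fasn was not counted there. Every gene shown holds the CCAAT letters, so the runs are not a sample of the set. Each run ends 1 base before the annotated start, reads 5′ to 3′ on the gene's strand, and has in capitals the CCAAT box on either strand (ATTGG on the opposite one) and the sterol element core.
Hmgcs1, chr13:119690101-119690350, plus strand: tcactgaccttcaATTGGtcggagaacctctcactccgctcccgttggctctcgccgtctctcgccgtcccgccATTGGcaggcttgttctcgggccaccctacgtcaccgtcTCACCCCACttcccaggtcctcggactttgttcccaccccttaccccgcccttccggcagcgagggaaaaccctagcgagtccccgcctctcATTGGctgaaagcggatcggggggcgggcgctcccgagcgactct
Mvd, chr8:122443423-122443672, minus strand: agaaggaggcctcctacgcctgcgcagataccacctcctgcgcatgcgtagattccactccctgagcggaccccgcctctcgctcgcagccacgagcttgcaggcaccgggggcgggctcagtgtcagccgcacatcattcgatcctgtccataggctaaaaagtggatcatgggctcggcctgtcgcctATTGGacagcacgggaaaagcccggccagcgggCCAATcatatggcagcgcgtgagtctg
Idi1, chr13:8885356-8885605, plus strand: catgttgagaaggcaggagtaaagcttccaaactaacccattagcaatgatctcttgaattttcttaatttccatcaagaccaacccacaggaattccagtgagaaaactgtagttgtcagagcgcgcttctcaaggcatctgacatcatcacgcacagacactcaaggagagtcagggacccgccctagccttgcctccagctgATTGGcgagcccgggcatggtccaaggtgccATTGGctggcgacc
Cyp51, chr5:4104698-4104947, minus strand: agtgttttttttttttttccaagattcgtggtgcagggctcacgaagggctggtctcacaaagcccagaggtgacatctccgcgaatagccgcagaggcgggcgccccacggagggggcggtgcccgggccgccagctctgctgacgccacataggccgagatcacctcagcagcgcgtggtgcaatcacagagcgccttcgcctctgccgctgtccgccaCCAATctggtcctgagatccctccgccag
Insig1, chr5:28071162-28071411, plus strand: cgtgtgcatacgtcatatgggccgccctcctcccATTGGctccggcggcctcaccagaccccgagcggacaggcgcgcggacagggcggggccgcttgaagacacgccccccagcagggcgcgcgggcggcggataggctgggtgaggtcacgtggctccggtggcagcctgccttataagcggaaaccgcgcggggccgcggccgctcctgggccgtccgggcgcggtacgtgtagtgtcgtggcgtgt
Fasn, chr11:120824548-120824797, minus strand: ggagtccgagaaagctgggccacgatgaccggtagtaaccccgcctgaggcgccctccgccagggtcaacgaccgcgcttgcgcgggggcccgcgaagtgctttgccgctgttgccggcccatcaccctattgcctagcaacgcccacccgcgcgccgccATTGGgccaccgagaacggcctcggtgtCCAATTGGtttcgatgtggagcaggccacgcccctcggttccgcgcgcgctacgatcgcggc

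In these runs Hmgcs1 held 3 CCAAT boxes and 1 sterol element core, whose first base lay at position -137 relative to the start. Mvd and Idi1 held 2 CCAAT boxes each, and Cyp51 and Insig1 held 1 each. Fasn held 3, a pair of which overlap on opposite strands in one run of capitals. The gene lower in vivo whose window lacked the CCAAT letters was Fads2.

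The levels in all libraries are described next. At 1 h no gene of the set reached 5 FPKM in either library. The highest was Srebf2 with IL-1β at 4.99 FPKM, and 11 genes with IL-1β and 16 without were listed at 0. At day 3, 31 genes reached 5 FPKM with IL-1β, against 32 without, and in vivo 31 did with IL-1β, against 33 without. The summed FPKM of the 35 genes was 37.8 with IL-1β and 23.3 without at 1 h. It was 1079 with and 1379 without IL-1β at day 3, then 825 with and 1519 without in vivo. The libraries also differed in their summed FPKM over all genes, which at 1 h was 229606 with and 142341 without IL-1β. At day 3 that total was 410045 with and 360609 without IL-1β, and in vivo 368080 with and 361400 without. The desaturase gene Scd2 was the most abundant of the set in both day 3 libraries and in vivo without IL-1β, at 133 FPKM at day 3 with IL-1β, 224 FPKM at day 3 without and 237 FPKM in vivo without. In vivo with IL-1β, Scd1 held that place at 155 FPKM. Me1, which encodes the NADPH-making malic enzyme, and the sterol exporter gene Abca1 stayed under 5 FPKM in every library.

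**Figure D1:**
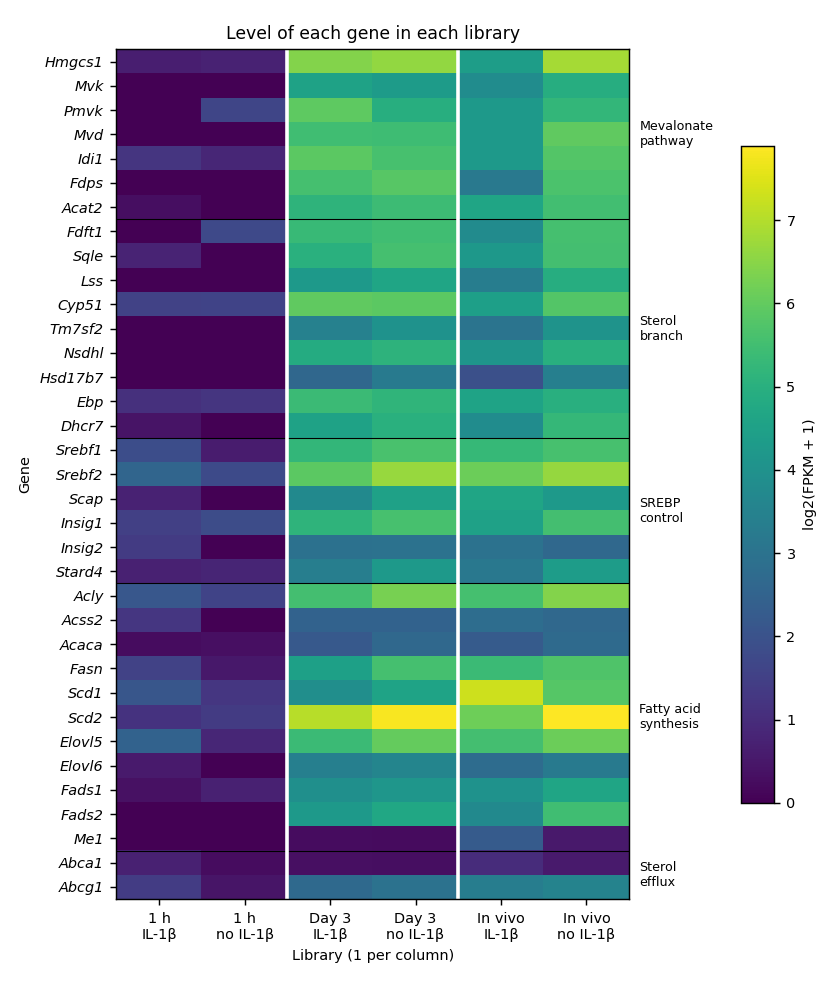
Level of each of the 35 genes (rows, grouped by role) in each of the 6 libraries (columns, 1 library each), as log2(FPKM + 1) in colour. The sterol enzyme rows are dark at 1 h, bright in both day 3 libraries and in vivo without IL-1β, and darker in vivo with IL-1β, where Scd1 stands out at 155 FPKM.

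The comparison of the in vivo arms shows how cells that had seen IL-1β in culture stood 1 week after transfer. Most sterol synthesis enzymes were lower in the IL-1β arm. Of the 33 genes of the set that could be compared, 15 were lower and 1 was higher, against 3.48% lower and 6.23% higher among all 8639 compared genes. The median log2 ratio of the 33 was -0.97, against 0.03 for all compared genes. Of the 16 mevalonate and sterol branch enzymes, 11 were lower and 0 higher, and all 16 ratios were below 0. Their summed level was 243 FPKM with IL-1β, against 687 FPKM without. In bulk RNA, fewer cells of a type and less RNA per cell cannot be told apart.

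In the mevalonate pathway 5 of 7 genes were lower, with a median log2 ratio of -1.56. Hmgcs1 encodes HMG-CoA synthase, which makes the substrate of the pathway's rate-limiting step. It stood at 0.586 FPKM with IL-1β, against 0.683 FPKM without at 1 h, at 85.8 FPKM with and 97.5 FPKM without IL-1β at day 3, and at 19.9 FPKM (interval 14.0 to 25.6) with and 112 FPKM (93.3 to 128) without IL-1β in vivo. The in vivo library with IL-1β is the low one of the 4 poly(A) libraries, and its interval lies below those of the other 3. The log2 ratio of (FPKM + 1) was -2.44, or 5.43-fold lower with IL-1β. Hmgcs1 is deposited as 2 entries on the unplaced chromosome 13 sequence of mm9 (bases 114710 to 132325 and 308620 to 326235), which were summed, with their bounds, because reads of near-identical copies may be split between them. Singly the entries stood at 6.69 and 13.2 FPKM with IL-1β, against 41.6 and 70.6 FPKM without.

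Fdps makes farnesyl diphosphate, the branch point to sterols and to other isoprenoids (mm9 chromosome 3, 88897510 to 88905889). It was listed at 0 in both 1 h libraries and stood at 46.4 FPKM with IL-1β, against 55.9 FPKM without at day 3. In vivo it stood at 8.15 FPKM (3.47 to 12.8) with IL-1β, against 49.7 FPKM (37.9 to 61.5) without. Its log2 ratio of -2.47 was the lowest of the set and the 31st lowest of all 8639 compared genes. Hmgcs1 was the 33rd lowest.

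Of the other mevalonate genes, Mvd, the decarboxylase, stood in vivo at 18.4 FPKM with IL-1β, against 62.3 FPKM without (log2 ratio -1.71). The isomerase gene Idi1 stood at 17.8 FPKM with and 54.6 FPKM without IL-1β (-1.56), and the mevalonate kinase gene Mvk at 13.4 FPKM with and 29.2 FPKM without IL-1β (-1.07). These 3 genes were lower, Mvk only narrowly. The second kinase of the route, Pmvk, stood at 18.0 FPKM with IL-1β, against 36.3 FPKM without (-0.97), with intervals of 10.8 to 25.2 and 25.4 to 47.2, and missed the 2-fold limit. The thiolase gene Acat2, at the entry of the pathway, stood at 24.1 FPKM with IL-1β, against 44.1 FPKM without (-0.85) and was not counted, although its intervals did not overlap.

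In the sterol branch 6 of 9 genes were lower, with a median log2 ratio of -1.33. Fdft1, squalene synthase, which commits the route to sterols, stood in vivo at 13.1 FPKM (9.58 to 16.8) with IL-1β, against 46.0 FPKM (38.8 to 53.1) without, a log2 ratio of -1.73. The squalene epoxidase gene Sqle stood at 17.3 FPKM with and 45.0 FPKM without IL-1β (-1.33), and the ring-closing lanosterol synthase gene Lss at 9.25 FPKM with and 29.3 FPKM without IL-1β (-1.56). Cyp51, the lanosterol demethylase, stood at 21.1 FPKM with and 54.5 FPKM without IL-1β (-1.33). All 4 genes had intervals well apart, and their levels with IL-1β in vivo were below both day 3 levels.

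Among the later steps, Hsd17b7, a ketoreductase of sterol demethylation, stood at 2.82 FPKM with IL-1β, against 9.60 FPKM without (-1.47), and Dhcr7, a terminal reductase, at 13.2 FPKM with and 37.4 FPKM without IL-1β (-1.44). Both were lower. Tm7sf2, another sterol reductase, differed by more than 2-fold at 7.16 FPKM with and 15.6 FPKM without IL-1β (-1.03), but its intervals of 3.66 to 10.5 and 9.40 to 21.6 overlapped. Nsdhl, which acts in demethylation beside Hsd17b7, stood at 16.2 FPKM with and 30.4 FPKM without IL-1β (-0.87). The sterol isomerase gene Ebp was the closest of the branch at 23.1 FPKM with and 30.4 FPKM without IL-1β (-0.38), with overlapping intervals.

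Of the 6 genes of SREBP control and sterol transfer, 2 were lower and 0 higher, against 3.48% and 6.23% among all compared genes. Their median log2 ratio was -0.42. Srebf2 stood at 4.99 FPKM with IL-1β, against 2.42 FPKM without at 1 h, at 59.3 FPKM with and 101 FPKM without IL-1β at day 3, and at 68.6 FPKM (59.8 to 76.3) with and 99.2 FPKM (87.9 to 108) without IL-1β in vivo. In both poly(A) stages the library with IL-1β was the one with less Srebf2, with intervals apart, but neither log2 ratio (-0.76 at day 3 and -0.52 in vivo) reached 2-fold. Day 3 ratios tended to be lower for longer transcripts (Spearman correlation -0.58), and that of Srebf2 has 5077 bases. Srebf1 stood at 2.66 FPKM with IL-1β, against 0.516 FPKM without at 1 h, at 36.4 FPKM with and 48.1 FPKM without IL-1β at day 3, and at 38.1 FPKM with and 47.7 FPKM without IL-1β in vivo (-0.32 in vivo). FPKM of RNA does not show how much SREBP protein was cleaved.

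Scap was above 0 on the log2 scale in vivo, at 23.8 FPKM with IL-1β, against 18.2 FPKM without (0.37), and below 0 at day 3, at 12.5 FPKM with and 21.9 FPKM without IL-1β (-0.76). It was counted at neither stage, and at 1 h its level was 0.692 FPKM in the IL-1β library, against a listed 0 in the other. Insig1, itself a target of SREBP, stood at 1.84 FPKM with IL-1β, against 2.57 FPKM without at 1 h, at 33.9 FPKM with and 47.6 FPKM without IL-1β at day 3, and at 22.0 FPKM with and 45.4 FPKM without IL-1β in vivo. It was lower in vivo by a narrow margin (-1.01). Its paralog Insig2 was not counted at either stage, at 6.78 FPKM with and 6.92 FPKM without IL-1β at day 3 and 6.81 FPKM with and 5.36 FPKM without IL-1β in vivo, with 1.61 FPKM with and a listed 0 without IL-1β at 1 h. Stard4, a cholesterol transfer protein, was lower in vivo at 7.92 FPKM with IL-1β, against 19.7 FPKM without (-1.21). At day 3 it stood at 9.36 FPKM with and 18.1 FPKM without IL-1β (-0.88), and at 1 h at 0.648 FPKM with and 0.755 FPKM without IL-1β.

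Of 10 fatty acid genes compared in vivo, 2 were lower and 1 higher, against 3.48% lower and 6.23% higher among all compared genes. Their median log2 ratio was -0.53. With so few genes, the 1 higher gene is no result about the group. Scd2, a stearoyl-CoA desaturase that introduces the double bond of oleate (mm9 chromosome 19, 44368166 to 44381352), stood at 1.21 FPKM with IL-1β, against 1.62 FPKM without at 1 h, at 133 FPKM with and 224 FPKM without IL-1β at day 3, and at 70.1 FPKM (63.5 to 76.8) with and 237 FPKM (223 to 251) without IL-1β in vivo. It was lower in vivo, with a log2 ratio of -1.74. Its neighbour and paralog Scd1 (44468940 to 44482199) stood at 3.33 FPKM with IL-1β, against 1.37 FPKM without at 1 h, at 14.0 FPKM with and 23.2 FPKM without IL-1β at day 3, and at 155 FPKM (140 to 165) with and 55.2 FPKM (48.0 to 61.8) without IL-1β in vivo. Scd1 was the higher gene of the set (1.47), so the pair went opposite ways. The FPKM ratio of Scd1 to Scd2 was 2.21 in vivo with IL-1β and 0.232 without, against 0.105 and 0.103 at day 3. The pair are close paralogs, and no source used here says how reads that match both were assigned.

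Scd1 is also abundant in lipid-making cells outside the T cell lineage, including the surfactant-producing cells of the alveolus. The surfactant gene Sftpc stood at 10010.5 FPKM with IL-1β, against 3512 FPKM without in vivo, and at 7.04 FPKM with and 4.60 FPKM without IL-1β at day 3. Scd1 and the epithelial markers were thus high in the same library, and the part of the epithelial RNA in the Scd1 difference was not tested.

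Fads2, which desaturates polyunsaturated fatty acids, was lower in vivo at 12.4 FPKM (6.73 to 17.5) with IL-1β, against 43.6 FPKM (30.4 to 55.3) without (-1.74). Its partner Fads1 stood at 15.2 FPKM with and 23.9 FPKM without IL-1β (-0.62) and was not counted. The other fatty acid genes compared in vivo were not counted either. Acly, which splits citrate to acetyl-CoA, stood at 46.5 FPKM with and 85.3 FPKM without IL-1β (-0.86), and the fatty acid synthase gene Fasn at 40.6 FPKM with and 51.6 FPKM without IL-1β (-0.34). Both pairs of intervals stayed apart but the ratios missed 2-fold. The elongase gene Elovl5 stood at 45.7 FPKM with and 68.7 FPKM without IL-1β (-0.58) and Elovl6 at 5.94 FPKM with and 8.63 FPKM without IL-1β (-0.47). Acaca, the carboxylase of the committed step, stood at 3.78 FPKM with and 5.68 FPKM without IL-1β (-0.49), and the acetyl-CoA synthetase gene Acss2 at 6.03 FPKM with and 5.34 FPKM without IL-1β (0.15). Me1 was not compared, at 3.83 FPKM (2.02 to 5.85) with IL-1β, against 0.459 FPKM (0 to 1.61) without in vivo.

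The exporters Abca1 and Abcg1 are targets of the sterol-sensing LXR receptors and move cholesterol out of cells. Abcg1 stood at 1.62 FPKM with IL-1β, against 0.378 FPKM without at 1 h, at 5.50 FPKM with and 6.88 FPKM without IL-1β at day 3, and at 9.11 FPKM with and 10.6 FPKM without IL-1β in vivo. Its in vivo log2 ratio was -0.19 with overlapping intervals. Abca1 stood between 0.212 and 1.01 FPKM over the 6 libraries and was compared in none of them. Neither exporter was counted in an IL-1β comparison.

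**Figure D2:**
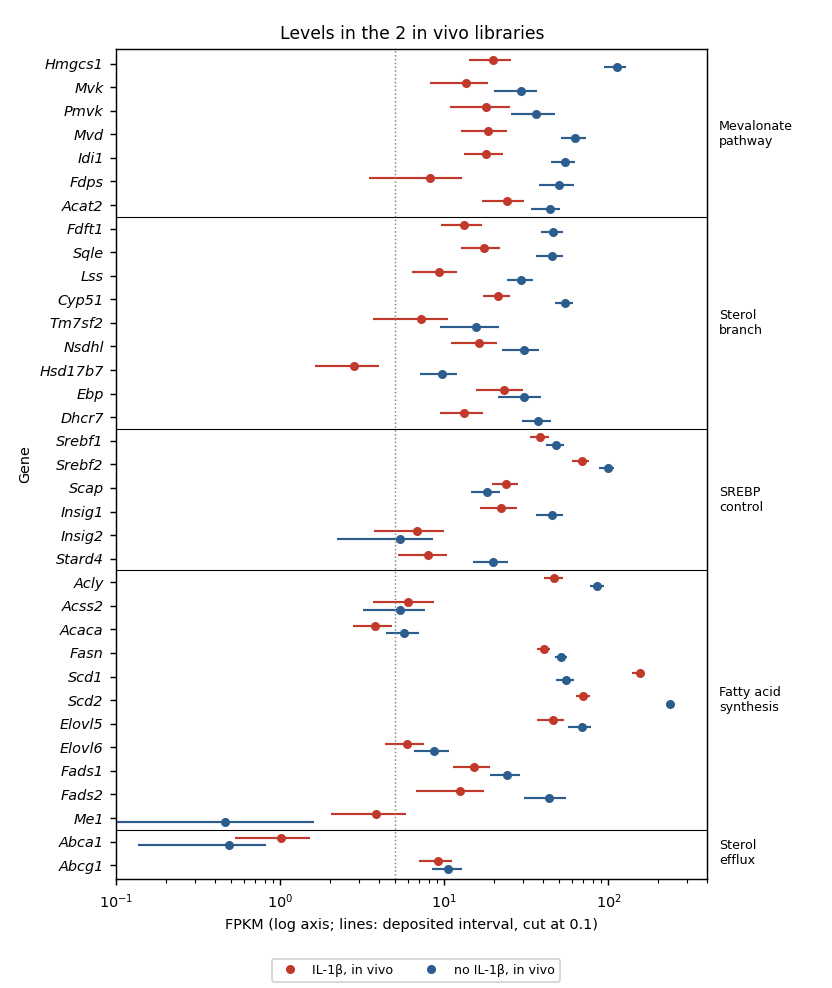
FPKM on a log axis of the 35 genes in the 2 in vivo libraries, with IL-1β in red above and without IL-1β in blue below. Lines are the deposited intervals and the dotted line marks 5 FPKM. The red points of the mevalonate and sterol branch genes lie left of the blue ones, while Scd1 lies to the right at 155 FPKM against 55.2 FPKM.

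Other lists of lipid genes are given beside the same background of 3.48% lower and 6.23% higher among all genes. At those shares lists of this size would hold few counted genes or none, so a count of 0 sets no limit to the difference. Of 9 compared genes that use isoprenoids (prenyl transferases and processing enzymes), 0 were counted, with a median log2 ratio of 0.03. Sterol ester and transport genes had 0 of 9 counted (median -0.03), genes of SREBP cleavage and turnover 0 of 6 (0.18) and NADPH-supplying enzymes 0 of 7 (-0.08). Fatty acid elongation and activation genes had 2 of 11 higher and 1 lower (-0.04). Slc25a1, the mitochondrial citrate exporter that feeds Acly, was the lower one at 27.0 FPKM with IL-1β, against 78.8 FPKM without (-1.51). The higher ones were Elovl1, an elongase of very long chains, at 135 FPKM with and 67.1 FPKM without IL-1β (1.00), and Gpam, an acyltransferase of glycerolipid synthesis, at 5.86 FPKM with and 2.13 FPKM without IL-1β (1.13). Fatty acid oxidation had 1 of 12 lower, the acyl-CoA dehydrogenase gene Acadl, at 33.0 FPKM with and 68.7 FPKM without IL-1β (-1.04), and a median of -0.05.

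Proliferation genes were lower in the same library. In the cell cycle list, 12 of 18 genes were lower and none was higher (median log2 ratio -1.20). Their summed level was 714 FPKM in vivo with IL-1β, against 1525 FPKM without, while at day 3 it was 1600 FPKM with and 1709 FPKM without IL-1β. By the mean of both in vivo libraries the most abundant were Rrm2, which was lower at 88.0 FPKM with and 197 FPKM without IL-1β, and Pcna, which was not counted at 105 FPKM with and 132 FPKM without IL-1β. Of 11 T cell identity genes, 0 were counted, with a median of -0.15 and summed levels of 2984 FPKM with and 3251 FPKM without IL-1β. Scaling these T cell genes to a median of 0 left 13 genes of the set lower and 1 higher, with Mvk (-0.92) and Insig1 (-0.87) no longer counted. Among all genes that scaling gave 712 higher and 221 lower, against 538 and 301 without it.

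Markers of several other cell types were higher in the same library. For each list the 2 most abundant genes by the mean of both libraries are named. The epithelial list had 8 of 9 higher (median 1.72), among them Sftpc and the airway gene Scgb1a1 at 5710 FPKM with IL-1β, against 2736 FPKM without. Stroma and endothelium had 7 of 8 higher (2.22), with summed levels of 199 FPKM with IL-1β, against 66.0 FPKM without. Sparc was higher, and Pecam1 was not counted at 34.5 FPKM with and 21.3 FPKM without IL-1β. Myeloid markers had 2 of 8 compared genes higher (0.87), at summed levels of 2097 FPKM with and 786 FPKM without IL-1β. Lyz2 was higher and H2-Aa was not counted (log2 ratio 0.85), while the macrophage gene Marco was listed at 0 in all libraries. Erythroid genes had 1 of 3 higher, at 679 FPKM with and 374 FPKM without IL-1β. The higher one was Hba-a2, listed at 0 without IL-1β, while Hba-a1 was not counted (log2 ratio 0.55) and Hbb-b1 was listed at 0 in all libraries. B cell markers had 1 of 3 lower, at 24.3 FPKM with and 39.6 FPKM without IL-1β. Cd79b was lower, and Cd79a was not counted at 12.6 FPKM with and 8.25 FPKM without IL-1β. The part of these cells and of the cell cycle difference in the sterol gene result was not tested.

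**Figure D3:**
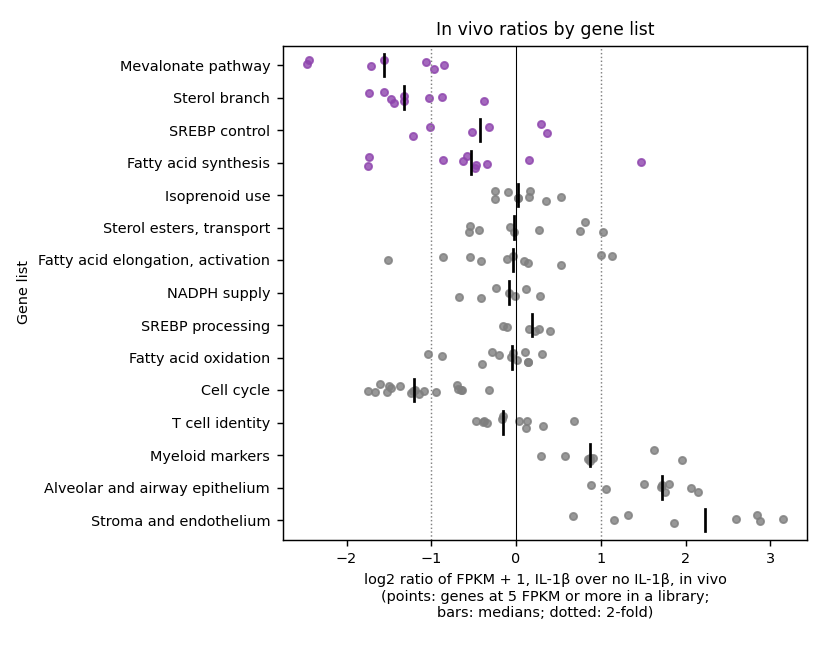
Log2 ratio of (FPKM + 1), in vivo with IL-1β over in vivo without, for compared genes in 4 groups of the set (purple) and 11 other lists (grey). Points are genes and bars are medians. The mevalonate, sterol branch and cell cycle lists lie left of 0 with medians of -1.56, -1.33 and -1.20, while the isoprenoid, SREBP processing and T cell identity lists lie around 0.

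At day 3, before injection, the arms were closer. Of 32 compared genes of the set, 1 was lower with IL-1β and 0 were higher, against 2.15% lower and 1.29% higher among all 7962 compared genes. Their median log2 ratio was -0.38, against -0.05 for all compared genes, and 26 of the 32 ratios were below 0. The mevalonate genes had a median of 0.05 and the sterol branch -0.38, with 0 of 16 counted. Fatty acid genes had a median of -0.65 and SREBP control genes -0.62. These medians use ratios as deposited, which at day 3 ran with transcript length (Spearman correlation -0.58). The part of length in the differences between these groups was not tested.

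The genes that were lower in vivo stood as follows before injection. Idi1 had 1.35 FPKM with and 0.788 FPKM without IL-1β at 1 h, and 59.6 FPKM with and 47.6 FPKM without at day 3. Mvk and Mvd were listed at 0 in both 1 h libraries, and at day 3 Mvk had 22.4 FPKM with and 19.0 FPKM without IL-1β, and Mvd 43.9 FPKM with and 42.5 FPKM without. The day 3 intervals of these mevalonate genes overlapped between the arms, with the slightly larger value in the IL-1β library each time. Fdft1 had a listed 0 with and 2.37 FPKM without IL-1β at 1 h, and 39.3 FPKM with and 43.3 FPKM without at day 3. Sqle had 0.707 FPKM with and a listed 0 without IL-1β at 1 h, and 30.9 FPKM with and 46.8 FPKM without at day 3. Cyp51 had 1.97 FPKM with and 2.04 FPKM without IL-1β at 1 h, and 61.9 FPKM with and 58.5 FPKM without at day 3. Of these sterol branch genes, Sqle was the one whose day 3 intervals stayed apart, at a log2 ratio of -0.58. Dhcr7 had 0.344 FPKM with and a listed 0 without IL-1β at 1 h, and 22.5 FPKM with and 31.0 FPKM without at day 3. Lss, Hsd17b7 and Fads2 were listed at 0 in both 1 h libraries. At day 3 Lss had 18.4 FPKM with and 24.2 FPKM without IL-1β, Hsd17b7 5.27 FPKM with and 8.58 FPKM without, and Fads2 18.1 FPKM with and 25.0 FPKM without. These 4 genes had less in the IL-1β library at day 3, with overlapping intervals.

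Fasn was the lower gene at day 3. It stood at 1.97 FPKM with IL-1β, against 0.437 FPKM without at 1 h, at 21.4 FPKM (19.0 to 23.7) with and 46.5 FPKM (42.9 to 50.0) without IL-1β at day 3, and at 40.6 FPKM with and 51.6 FPKM without IL-1β in vivo. Its log2 ratio at day 3 was -1.09, and the library with IL-1β at day 3 was the low one of the 4. The ratio at day 3 ran with transcript length, however, with a Spearman correlation of -0.58 across 7240 genes, which are not independent replicates, and Fasn is a long transcript of 10050 bases. With that trend removed its log2 ratio was -0.66 and 0 genes of the set were counted, with a median of -0.32 against -0.01 for all compared genes. Among all genes 99 were then higher and 87 lower, against 103 and 171 as deposited. In vivo the correlation with length was -0.01 (7884 genes), and removing the trend left 15 genes lower and 1 higher.

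At the other end of the set, Pmvk stood at 60.6 FPKM (47.8 to 73.5) with IL-1β, against 30.2 FPKM (21.2 to 38.7) without at day 3, with a log2 ratio of 0.98 that just missed the 2-fold limit. It is a short transcript of 1194 bases, and with the length trend removed the ratio was 0.64. From day 3 to in vivo the IL-1β ratio shifted by a median of -1.88 on the log2 scale in mevalonate genes, where 7 of 7 shifts were below 0, and by -0.86 in the sterol branch, with 9 of 9. SREBP control genes shifted by 0.16 and fatty acid genes by -0.13, and all 7700 genes compared at both stages by 0.03. These shifts have no replicate and were not tested. They use the ratios as deposited, which ran with transcript length at day 3 (Spearman correlation -0.58) but not in vivo (-0.01). The day 3 length trend spanned 0.80 on the log2 scale over the genes of the set. Its part in the differences between these groups of genes was not tested.

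**Figure D4:**
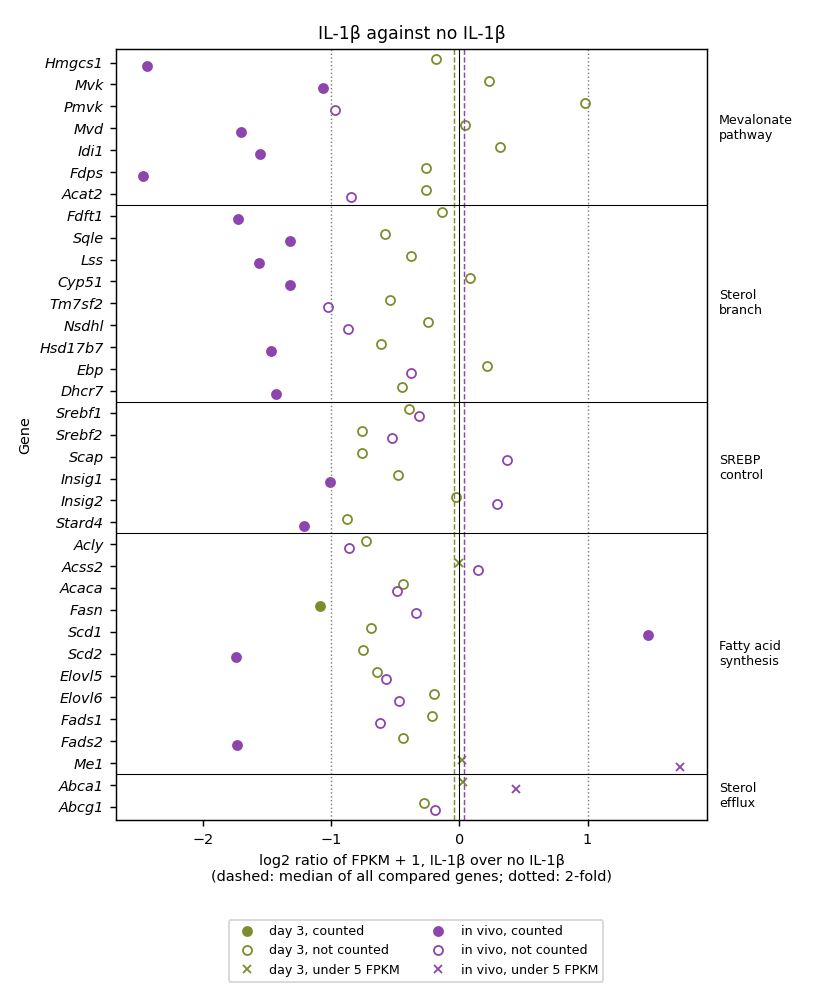
Log2 ratio of (FPKM + 1), IL-1β over no IL-1β, for each gene at day 3 (green) and in vivo (purple). Filled points were counted, open points were not, and crosses mark genes under 5 FPKM in both libraries. In vivo, 15 filled points lie below -1 and the filled point of Scd1 lies above 1, while at day 3 the only filled point is Fasn.

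The change between culture and the mouse was then read within each arm. In cells given IL-1β, 7 of 32 compared genes of the set were lower in vivo than at day 3 and 1 was higher, against 5.87% lower and 12.0% higher among all 8572 compared genes. The lower ones were Fdps (log2 ratio -2.37), Hmgcs1 (-2.06), Pmvk (-1.70), Idi1 (-1.68), Fdft1 (-1.51), Cyp51 (-1.51) and Mvd (-1.21). They are 5 mevalonate genes and 2 sterol branch genes. All 16 enzymes of these groups had ratios below 0, and their summed level was 243 FPKM in vivo and 610 FPKM at day 3. With the length trend removed, which in this comparison ran at a Spearman correlation of 0.36 across 7814 genes, 8 genes were lower, with Lss and Scd2 added and Mvd lost.

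In cells without IL-1β, 0 of 33 compared genes were lower in vivo and 1 was higher, against 0.665% lower and 2.13% higher among all 8126 compared genes. The summed level of the 16 sterol enzymes was 687 FPKM in vivo and 630 FPKM at day 3, and their median log2 ratio was 0.12. Their ratios ran between -0.19 and 0.60, so none of them came near the 2-fold limit. The SREBP control genes had a median of -0.05 here and 0.03 in the IL-1β arm. The 2 arms share no library in these comparisons, and the difference between them has no replicate and was not tested.

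Scd1 was higher in vivo than at day 3 in both arms. It stood at 155 FPKM in vivo and 14.0 FPKM at day 3 with IL-1β (log2 ratio 3.38), and at 55.2 FPKM in vivo and 23.2 FPKM at day 3 without (1.22). Epithelial markers were higher in vivo in both arms too, 9 of 9 with IL-1β and 8 of 9 without. The other fatty acid genes were not counted in either arm. Fasn stood at 40.6 FPKM in vivo and 21.4 FPKM at day 3 with IL-1β (0.90), and at 51.6 FPKM in vivo and 46.5 FPKM at day 3 without (0.15). With T cell identity genes scaled to a median of 0, Fasn and Scap joined Scd1 as higher in the IL-1β arm, and all genes split into 1328 higher and 340 lower, against 1032 and 503 unscaled. Cell cycle genes were lower in vivo in 11 of 18 cases with IL-1β and in 0 of 18 without.

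**Figure D5:**
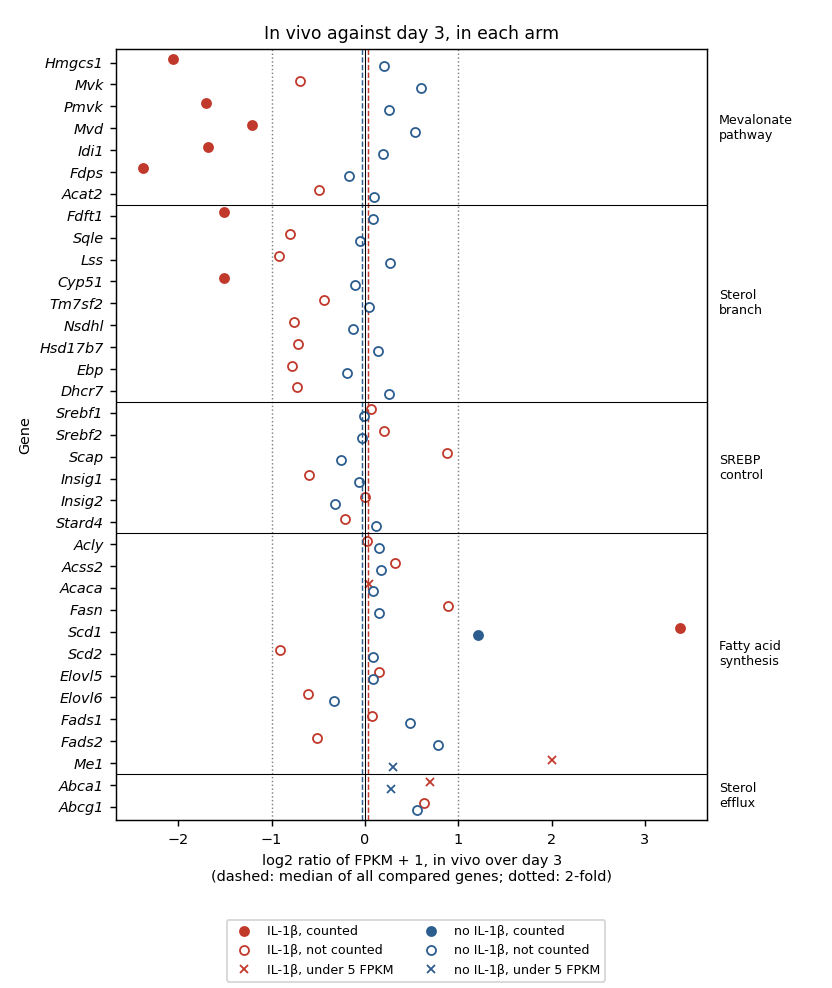
Log2 ratio of (FPKM + 1), in vivo over day 3, for each gene in cells given IL-1β (red) and in cells without it (blue). Filled points were counted. The red mevalonate and sterol branch points all lie below 0 and 7 are filled, while the blue ones lie between -0.19 and 0.60, and Scd1 is filled in both arms.

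The 1 h stage carries little on these genes. None of the 35 reached 5 FPKM there, so none was compared between the arms, against 7.72% higher and 0.214% lower among the 933 genes that were. From 1 h to day 3 nearly all genes stood higher, and stage cannot be told apart from the change of RNA selection. With IL-1β, 30 of 31 compared genes of the set were higher at day 3 and 0 lower, against 95.5% higher and 0.595% lower among all 7392 compared genes. Without IL-1β 32 of 32 were higher, against 95.7% higher and 0.299% lower among 7689. These shares are close to the background and say nothing particular about the set. The median log2 ratio of the set was 4.13 with IL-1β and 4.59 without, against 3.25 and 3.44 for all compared genes. Insig2, at 6.78 FPKM at day 3 and 1.61 FPKM at 1 h with IL-1β, was the gene not counted.

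A difference between the arms common to all 3 stages was looked for with limma on log2(FPKM + 1), with stage as covariate and Benjamini-Hochberg adjustment over 8946 genes. It called 0 genes (smallest adjusted p 0.937), while 320 had an unadjusted p under 0.05. Of the 33 tested genes of the set, 0 were called and 2 had an unadjusted p under 0.05. They were Fdft1 and Scd2, with log2 differences of -1.21 ± 0.396 and -0.91 ± 0.366 (SE) over the 3 stages. The 1 h stage weighed as much as the others, though no gene of the set reached 5 FPKM there. For Fdft1 the log2 ratio was -1.75 at 1 h (a listed 0 with and 2.37 FPKM without IL-1β), -0.14 at day 3 and -1.73 in vivo. For the set this fit therefore cannot decide whether a difference was common to the 3 stages. Without the 1 h stage the same fit, then with 1 residual degree of freedom, called 34 genes, 0 of them in the set. It gave an unadjusted p under 0.05 to 12 of the 33 genes of the set and to 688 of all 8901 genes. These counts rest on 1 library per arm at day 3 and in vivo, and genes are not independent replicates. The mevalonate and sterol branch ratios were lower in vivo than at day 3, a shift with no replicate that was not tested. With 1 residual degree of freedom, the counts cannot decide whether a difference was common to both stages.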

How the data were processed

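RNA of mouse CD4 T cells was sequenced in 6 libraries. Per the submitters' processing notes, reads were aligned with TopHat to genome build mm9. Its version and the program behind the FPKM are not named in those notes. Per the file headers, the authors deposited FPKM per gene with a lower and an upper bound, whose level is not stated. Depth is unknown, so no interval or floor from counts was computed. Each file has 23700 entries, of which 285 with a status other than OK were left out. Entries sharing a symbol, 190 symbols, were summed with their bounds. In 19 to 319 entries per file the FPKM lies above its own upper bound, and values were used as deposited. The median half-width of the interval was 42.1% of the FPKM at 1 h with IL-1β, 69.9% at 1 h without it, and 23.4% to 27.0% in the other libraries.

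There were 7 comparisons by size, with a pseudocount of 1, a minimum of 5 FPKM and a fold of 2, and no p-value. The fold change is on the log2(FPKM + 1) scale and understates low genes. limma 3.58.1 in R 4.3.3 tested all genes, with Benjamini-Hochberg adjustment at 0.05. Other values came from Python 3.11.15, pandas 2.3.3, numpy 2.4.6, scipy 1.17.1 and statsmodels 0.14.6, with figures from matplotlib 3.10.9. Transcript length is the longest GENCODE M21 basic transcript of a symbol, and the trend over it was fitted by lowess (fraction 0.3). The counting rule and the limma fit were run on simulated data, with noise taken from the deposited intervals or set to a fixed size. Such data do not hold the spread between replicate libraries, which is unknown here. The length trend fit was not simulated. Members, lists, tests and alternatives were chosen with earlier results of these data known. The genes named outside the set are list members counted in vivo and the 2 markers of a list with the highest mean FPKM in vivo. Marco and Hbb-b1 were added because they were listed at 0. Coordinates of genes are mm9 and those of promoter windows GRCm38.p6, with starts counted from 1.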

Additional observations from a re-analysis of the deposited data

Results flagged for a closer look

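Several genes had an IL-1β ratio that was counted in vivo and had the opposite sign at day 3, where none was counted. These differences between stages were not tested. On the log2 scale, the in vivo and day 3 ratios were -1.07 and 0.23 for Mvk, -1.71 and 0.05 for Mvd, -1.56 and 0.32 for Idi1 and -1.33 and 0.08 for Cyp51. For Scd1 they were 1.47 and -0.69. The day 3 intervals of Mvk, Mvd, Idi1 and Cyp51 overlapped. Day 3 ratios are given as deposited and tended to be larger for shorter transcripts (Spearman correlation -0.58). The transcripts of Mvk and Mvd have 1660 and 1756 bases. Their small ratios above 0 at day 3 therefore cannot be told apart from that trend here. The transcript of Scd1 has 4832 bases, so its day 3 ratio below 0 lies in the direction of the same trend and carries that limit too.

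For 5 genes the ratio of in vivo to day 3 was counted in the IL-1β arm and lay on the other side of 0 in the arm without it. That difference was likewise not tested. The log2 ratios of in vivo to day 3 with and without IL-1β were -2.06 and 0.20 for Hmgcs1, -1.70 and 0.26 for Pmvk, -1.21 and 0.54 for Mvd, -1.68 and 0.19 for Idi1 and -1.51 and 0.09 for Fdft1. The ratios without IL-1β were not counted, so they show no change in the opposite direction.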

How the results depend on the processing

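Within a stage no test was possible because each group holds 1 library. Across stages the arms were paired in limma, with the stage as block. The alternatives were pseudocounts of 0.1 and 5, no minimum, no condition on intervals, a median ratio of 0, the length trend removed, and T cell identity genes at 0 (the last 2 not for every comparison). No counted ratio of a gene of the set changed sign in the comparisons of the arms at day 3 and in vivo or of in vivo with day 3. In vivo with IL-1β against without, 11 to 16 of 33 to 35 genes of the set were lower. Among all genes 165 to 376 of 8631 to 14242 were lower. A pseudocount of 5 lost Mvk, Hsd17b7, Insig1 and Stard4. With no minimum, 2 of 26 genes were higher at 1 h (Fasn and Elovl5), against 385 of 8836 among all genes. In vivo 2 of 35 were higher (Scd1 and Me1), against 829 of 14242. From day 3 to in vivo with IL-1β 2 of 35 were higher, against 1719 of 14180. At day 3, 0 were lower with a pseudocount of 5 or the length trend removed, against 40 and 87 among all genes. With a pseudocount of 0.1, 1 gene, Pmvk, was higher there, against 113 among all 7962. T cell genes at 0 gave 3 of 32 higher in vivo against day 3 with IL-1β, against 1328 of 8765 among all genes. From 1 h to day 3, a median ratio of 0 takes out a shift of 3.32 with and 3.46 without IL-1β on the log2 scale. Most genes then fell under the minimum. With IL-1β, 5 of the 6 genes of the set still compared were higher, against 1066 of 1858 among all genes. Without IL-1β 7 of 7 were higher, against 777 of 1539. With IL-1β that scaling also turned 3 of 30 counted genes below 0, Scd1 (-0.85), Abcg1 (-0.76) and Elovl5 (-0.11), none of them counted there. Without IL-1β that scaling turned 0 of 32. limma called 34 genes without the 1 h stage and 0 in its other settings. The cause of these moves was not tested otherwise. Depth is unknown.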

Other observations

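The order of the libraries by likeness depended on the measure. The median absolute difference of log2(FPKM + 1) over 8901 genes was 0.23 between the in vivo and day 3 libraries without IL-1β, against 0.32 between the day 3 libraries with and without IL-1β and 0.51 between the in vivo and day 3 libraries with IL-1β. The Pearson correlation of the same values was 0.916, 0.945 and 0.788 for these pairs, so the day 3 arms were the closest pair of the 3 by that measure. Cell cycle genes summed to 1525 FPKM in vivo and 1709 FPKM at day 3 without IL-1β. The in vivo library without IL-1β differed from the day 3 one in its 6718 FPKM of epithelial markers, against 20.8 FPKM at day 3.

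The ratio ran with transcript length in some comparisons. Its Spearman correlation across genes was -0.58 between the arms at day 3, 0.36 between in vivo and day 3 with IL-1β, and -0.48 with and -0.38 without IL-1β between day 3 and 1 h, where RNA selection also differed. It was 0.08 between the arms at 1 h, -0.01 between the in vivo arms and 0.04 between in vivo and day 3 without IL-1β. The GC box (letters GGGCGG, both strands) stood in the 250 bases before the start of 22 of 27 genes of the set with a window (81.5%), against 66.1% of compared genes and 35.4% of all genes, and by single windows in 32.7%.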
